A study of Mus musculus with 24 samples.

Results

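D2.1 tumors grown in BALB/c mice were compared with D2.1 tumors grown in SCID-beige mice, 4 tumors against 5. These 9 tumors were chosen by the tumor line and host in the sample labels, and they are 9 of the 24 samples and of the 18 tumors in the series, which also holds cultured cells of both lines and tumors of the D2A1 line. D2.1 is a mouse mammary carcinoma line derived from hyperplastic alveolar nodules of BALB/c mice. It is used as a model of dormancy, since its cells persist for long periods before they grow out.

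Both groups were female mice aged 8 to 12 weeks that received 1000000 D2.1 cells in the mammary fat pad, and tumors were taken at about 500 mm3. The BALB/c hosts (BALB/cAnNTac) have an intact immune system and are syngeneic with the line. The SCID-beige hosts carry the scid allele of Prkdc and the beige allele of Lyst on the related C.B-Igh-1b background. That background is named for its allele of the immunoglobulin heavy chain locus, so the hosts may differ in strain there as well as in immune state. All tumors came from 1 cell line, so differences between clones or between independent lines were not sampled. RNA was prepared from whole snap-frozen tumors without sorting, so that each library mixes carcinoma cells with host leukocytes, stroma and any fat pad, skin or lymph node taken with the tumor. In such bulk samples fewer cells of a type and less RNA per cell cannot be told apart.

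Prkdc encodes the catalytic subunit of the DNA-dependent protein kinase, which is needed to join the gene segments of T cell and B cell antigen receptors, and mice with the scid allele therefore lack mature lymphocytes of both kinds. Lyst is needed for normal lysosome-related granules, and the beige allele impairs killing by natural killer (NK) cells without removing the cells. In an intact host, T cells that recognize antigen through the receptor and its CD3 chains can kill target cells (CD8+ cells), help other leukocytes (CD4+ cells) or restrain the response (Foxp3+ regulatory cells). Interferon-gamma from T and NK cells induces chemokines such as Cxcl9 and the machinery of antigen presentation in the cells around them.

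The 9 libraries held 16066945 to 18355153 counts, and from 17938 to 20921 genes had a count. Mitochondrial genes took 1.37% to 2.85% of the counts. Correlations of log2 CPM (counts per 1000000, scaled with TMM factors) ran from 0.925 to 0.972 over the 16 pairs of tumors in the same host and from 0.898 to 0.965 over the 20 pairs in different hosts, so the hosts did not form clearly separate groups over all genes. No 2 tumors agreed within counting noise. By the study's methods each tumor came from its own mouse, and p-values measure the spread between these mice. A total of 3 counts, taken as the detection floor, was worth 0.162 to 0.192 CPM. The levels of the mutated host genes check nothing, because the carcinoma cells carry intact alleles and neither host allele is a deletion of the gene: Prkdc was at 10.7 to 17.3 CPM in BALB/c and 8.87 to 19.8 CPM in SCID-beige mice, and Lyst at 18.3 to 47.2 CPM in BALB/c and 16.2 to 32.7 CPM in SCID-beige mice. Cd3e and Cd8a, defining T cell genes, were below 1 CPM in each of the 5 SCID-beige tumors and above 5 CPM in each of the 4 BALB/c tumors, as the host labels say.

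Of 14929 genes tested, 133 were called between the hosts (edgeR quasi-likelihood test, Benjamini-Hochberg adjusted p under 0.05), a share of 0.891%. Of these, 130 were higher in BALB/c hosts (0.871% of the genes tested) and 3 were lower (0.0201%). The median log2 fold change over all genes tested was -0.01. The log2 fold changes of the 130 ran from 0.81 to 9.97, with a median of 2.20. In 129 of them every BALB/c tumor lay above every SCID-beige tumor, a pattern that 3.34% of all genes tested showed. The called genes comprised 113 protein-coding genes and 14 antigen receptor segments, and 63 of the 133 belonged to the gene lists described here. The lists describe the direction in these tumors and are no independent support for it, and a member expressed in BALB/c hosts alone could pass the low-count filter only by differing. The calls depended on single tumors: 24 of the 133 genes were called in all 9 fits that each left out 1 tumor, 87 were called in 4 fits or fewer, and the count fell to 26 without BALB/c tumor 1 and rose to 314 without BALB/c tumor 2.

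**Figure D1:**
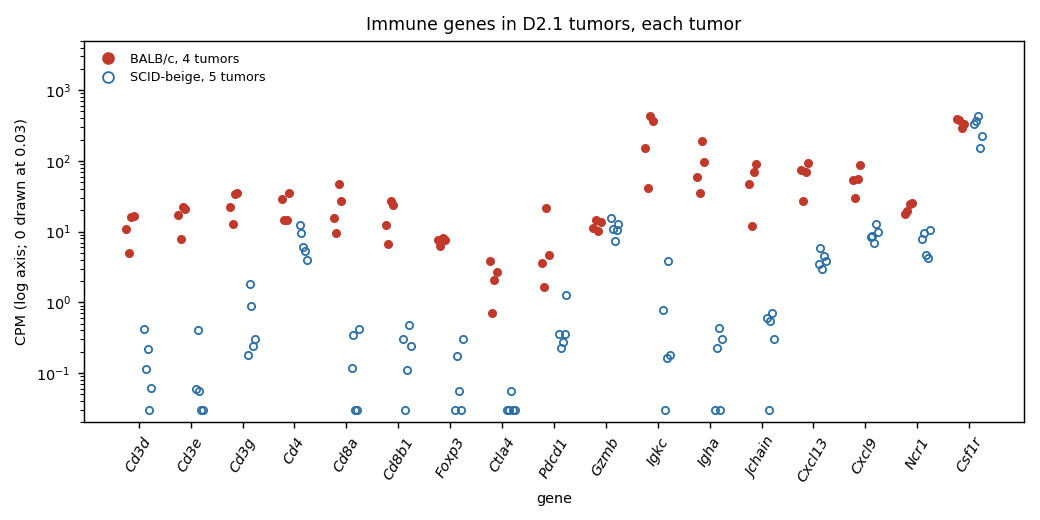
Level of 17 immune genes in each D2.1 tumor, in CPM on a log axis with 0 drawn at 0.03 (filled points, 4 BALB/c tumors; open points, 5 SCID-beige tumors). The CD3, CD8, Foxp3, Igkc and Igha values do not overlap between hosts, while those of Gzmb and Csf1r do.

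Genes of the T cell receptor complex and its signaling chain were higher in BALB/c hosts. All 24 listed genes were tested, 17 were called higher and none lower, against the background of 0.871%. Their median log2 fold change was 2.81, also with the 1 gene at 0 in all SCID-beige tumors set to its bound. Of the 24 genes 23 did not overlap between hosts, with BALB/c higher, against 3.34% of all genes tested. The number called was 9 without any 1 of BALB/c tumors 1, 3 and 4 or SCID-beige tumor 1, and 20 without BALB/c tumor 2. The summed level of the list was 275 to 618 CPM in the BALB/c and 72 to 162 CPM in the SCID-beige tumors.

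Cd3e (ENSMUSG00000032093, GRCm38 chromosome 9, 44998740 to 45009627), a signaling chain of the receptor, was at 17, 7.79, 22.5 and 20.6 CPM in the BALB/c tumors and 0.0597, 0.401, 0.0548, 0 and 0 CPM in the SCID-beige tumors. The largest SCID-beige value lay far below the smallest BALB/c value (log2 fold change 7.25 ± 0.71 SE, edgeR adjusted p = 0.00066). Cd3d, another CD3 chain (ENSMUSG00000032094, GRCm38 chromosome 9, 44981786 to 44987339), was at 10.7, 5.02, 16 and 16.5 CPM in the BALB/c tumors and 0.418, 0.115, 0.219, 0 and 0.0608 CPM in the SCID-beige tumors. Again the hosts did not overlap (log2 fold change 6.14 ± 0.65 SE, edgeR adjusted p = 0.00093). Cd3g, the third of these chains, was at 22.4, 12.6, 33.5 and 35.3 CPM in the BALB/c tumors and 0.179, 1.83, 0.877, 0.238 and 0.304 CPM in the SCID-beige tumors (log2 fold change 5.22 ± 0.60 SE, edgeR adjusted p = 0.0017). In all CD3 genes BALB/c tumor 2 was the lowest of its group and no SCID-beige tumor exceeded 1.83 CPM. Cd3e was called in 9 of the 9 fits with 1 tumor removed, Cd3d in 9 and Cd3g in 9.

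Cd6, a surface receptor that tunes T cell activation, had the largest rise of the T cell list. It had 302, 81, 249 and 331 counts in the BALB/c tumors and 0, 2, 0, 1 and 0 counts in the SCID-beige tumors. Over the groups the ratio of its mean levels was 402 (95% exact counting interval 137 to 1951), with few counts in the denominator (edgeR adjusted p = 0.00023). Cd5, its relative and a brake on receptor signaling, was at 3.54 to 14.3 CPM in BALB/c and 0 to 0.239 CPM in SCID-beige mice (log2 fold change 6.30 ± 0.71 SE, edgeR adjusted p = 0.0015). Themis, which acts in thymocyte selection and receptor signaling, had 1 count over all SCID-beige tumors and a ratio of mean levels of 240.2 (95% exact counting interval 42.6 to 9538). Trat1, a transmembrane adaptor of the receptor, was at 0 counts in every SCID-beige tumor and was at least 45-fold higher in BALB/c tumors, computed against a floor of 3 counts over the group.

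Trac, the constant segment of the receptor alpha chain, was at 10.6, 5.61, 15.6 and 18.3 CPM in the BALB/c tumors and 0.896, 0.515, 0.274, 0.357 and 0 CPM in the SCID-beige tumors. The hosts did not overlap, and SCID-beige tumors held a low level in 4 of 5 (log2 fold change 4.91 ± 0.64 SE, edgeR adjusted p = 0.0037). Trbc2, a beta chain constant segment, gave a log2 fold change of 3.89 ± 0.47 SE, edgeR adjusted p = 0.0024. Lck and Zap70, kinases downstream of the receptor, and Lat, an adaptor, were called higher as well, with log2 fold changes of 1.76, 1.92 and 3.68. Cd247, the zeta chain shared by T and NK cells, had a log2 fold change of 2.92 ± 0.63 SE, edgeR adjusted p = 0.053, and was not called.

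The regulatory sequence upstream of genes that carry the host difference is shown for 2 CD3 genes and 2 interferon-induced genes, chosen after their values were seen. The windows run from 250 bases before to 50 bases after the start in the RefSeq annotation of GRCm38.p6, 5′ to 3′ on the strand of the gene. Capitals mark matches to 4 short motifs searched on both strands: TTCNNNGAA, the GAS element of interferon-gamma signaling; GAAA, any 2 bases and GAAA again, the ISRE bound by interferon regulatory factors; TGTGGTT, the Runx motif; and AGGAAGT, an Ets motif.
Cd3d, chr9:44981536-44981835, plus strand: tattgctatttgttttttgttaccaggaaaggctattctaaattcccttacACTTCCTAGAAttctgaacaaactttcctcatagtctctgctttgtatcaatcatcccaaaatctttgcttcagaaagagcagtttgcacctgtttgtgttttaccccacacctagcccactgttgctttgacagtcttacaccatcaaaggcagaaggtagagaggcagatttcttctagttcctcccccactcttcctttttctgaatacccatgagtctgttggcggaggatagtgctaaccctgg
Cd3e, chr9:45009562-45009861, minus strand: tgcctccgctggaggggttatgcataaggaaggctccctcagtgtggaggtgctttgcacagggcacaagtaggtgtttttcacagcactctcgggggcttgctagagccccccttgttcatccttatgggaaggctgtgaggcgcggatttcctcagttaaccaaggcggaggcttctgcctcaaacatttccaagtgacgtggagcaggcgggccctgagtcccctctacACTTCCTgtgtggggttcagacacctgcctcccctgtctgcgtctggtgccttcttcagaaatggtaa
Cxcl9, chr5:92328030-92328329, minus strand: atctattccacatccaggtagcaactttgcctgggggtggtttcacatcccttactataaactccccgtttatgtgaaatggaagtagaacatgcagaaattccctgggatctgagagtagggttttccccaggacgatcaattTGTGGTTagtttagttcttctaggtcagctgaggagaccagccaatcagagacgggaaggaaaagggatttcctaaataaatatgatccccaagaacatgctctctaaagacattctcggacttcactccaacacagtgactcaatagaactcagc
Tgtp2, chr11:49064163-49064462, minus strand: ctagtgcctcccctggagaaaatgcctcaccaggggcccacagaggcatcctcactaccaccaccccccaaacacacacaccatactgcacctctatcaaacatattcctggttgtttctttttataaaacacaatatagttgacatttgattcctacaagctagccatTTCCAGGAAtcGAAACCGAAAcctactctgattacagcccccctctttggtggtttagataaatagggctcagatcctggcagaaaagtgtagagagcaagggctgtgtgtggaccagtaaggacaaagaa

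The Cd3d window holds a GAS match from position -197, with the start base as 0, which overlaps an Ets match on the opposite strand from position -199. The Cd3e window holds an Ets match on the opposite strand from position -18, and the Cxcl9 window holds a Runx match from position -106. The Tgtp2 window holds a GAS match from position -81 and an ISRE match from position -70. Of the genes called higher, 81 had a promoter in the RefSeq table, with 102 start sites in all. GAS matches occurred in 12.7% of those 102 windows, 6.92% of the 13777 windows of genes tested and 8.30% of all 32851 windows. For ISRE the shares were 9.80%, 3.26% and 3.44%, for Runx 11.8%, 3.88% and 5.27%, and for the Ets motif 23.5%, 9.39% and 9.35%. These shares are descriptions without a test. They count windows and not genes, and start sites of a gene can lie close together. The same match then counts in several windows, as for GAS in Rasal3 and Runx in Ncr1. A match is not a bound site, and windows without one say nothing of the factor.

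Of 16 tested CD8 and cytotoxic genes, 2 were called higher by edgeR, Cd8a and Cd8b1, the chains of the CD8 coreceptor, and DESeq2, which called 3.09% of all genes tested, called 5. Cd8a (ENSMUSG00000053977, GRCm38 chromosome 6, 71373427 to 71379173) was at 15.7, 9.68, 46.9 and 27.3 CPM in the BALB/c tumors and 0.119, 0.344, 0, 0 and 0.425 CPM in the SCID-beige tumors. BALB/c tumor 3 held the highest level, and the SCID-beige tumors were at or near 0 (log2 fold change 7.09 ± 0.74 SE, edgeR adjusted p = 0.00093). Cd8b1 was at 6.67 to 27.1 CPM in BALB/c and 0 to 0.475 CPM in SCID-beige mice (log2 fold change 6.24 ± 0.64 SE, edgeR adjusted p = 0.00093). Cd8a was called in 9 of the 9 left-out fits, and Cd8b1 in 9.

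Granule genes for killing and Ifng did not pass the edgeR test. Gzmb, the granule protease granzyme B, was at 11.2, 14.6, 10.3 and 13.7 CPM in the BALB/c tumors and 15.4, 10.8, 7.40, 10.6 and 12.7 CPM in the SCID-beige tumors. The hosts overlapped, and the log2 fold change was 0.14 ± 0.25 SE, edgeR adjusted p = 0.93. Prf1, the pore-forming perforin, was at 18.6 to 26.8 CPM in BALB/c and 5.26 to 15.7 CPM in SCID-beige mice, without overlap but not called (log2 fold change 0.93 ± 0.29 SE, edgeR adjusted p = 0.20). Gzmk, a granzyme of memory-like CD8+ cells, had a log2 fold change of 3.85 ± 0.90 SE, edgeR adjusted p = 0.071, and Ifng one of 2.27 ± 0.79 SE, edgeR adjusted p = 0.29. Gzmb and Prf1 are also made by NK cells, which SCID-beige mice keep. All 16 log2 fold changes in the list were positive, with a median of 1.02. Of the 16 genes 5 did not overlap, with BALB/c higher, against 3.34% of all genes tested.

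Cd4, the coreceptor of helper and regulatory T cells, was at 28.5, 14.7, 14.7 and 34.6 CPM in the BALB/c tumors and 12.4, 9.62, 6.03, 5.23 and 4.01 CPM in the SCID-beige tumors. Every BALB/c tumor was above every SCID-beige tumor, but the difference was not called (log2 fold change 1.63 ± 0.37 SE, edgeR adjusted p = 0.066). In mice subsets of dendritic cells and innate lymphoid cells also transcribe Cd4. Of the 16 tested genes for CD4+, regulatory and helper cells, 4 were called higher: Foxp3, Ctla4, Ccr8 and Icos. The number was 2 without BALB/c tumor 1 and 6 without BALB/c tumor 2. Foxp3 (ENSMUSG00000039521, GRCm38 chromosome X, 7573644 to 7595245), which specifies regulatory T cells, was at 7.56, 6.26, 8.04 and 7.54 CPM in the BALB/c tumors and 0, 0.172, 0.0548, 0 and 0.304 CPM in the SCID-beige tumors. Its BALB/c values were close to one another (mean 7.35 ± 0.765 CPM (SD, n = 4) against 0.106 ± 0.131 CPM (SD, n = 5)), and the SCID-beige values were at or near 0 (log2 fold change 6.03 ± 0.68 SE, edgeR adjusted p = 0.0015).

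Ctla4, an inhibitory receptor that competes with Cd28, was at 3.84, 0.708, 2.07 and 2.68 CPM in the BALB/c tumors and 0, 0, 0.0548, 0 and 0 CPM in the SCID-beige tumors. With 1 SCID-beige count in all, the ratio of mean levels was 201 (95% exact counting interval 35.6 to 8006) (edgeR adjusted p = 0.0034). Ccr8, a chemokine receptor of tumor regulatory T cells, gave 4.47 ± 0.79 SE, edgeR adjusted p = 0.025 on the log2 scale, and Icos, a costimulatory receptor, 3.22 ± 0.51 SE, edgeR adjusted p = 0.015. Of 15 tested checkpoint genes 4 were called, namely Ctla4, Pdcd1, Lag3 and Cd96, and 2 without any 1 of BALB/c tumors 1, 3 and 4 or SCID-beige tumors 1, 3 and 4. Pdcd1, which encodes the receptor PD-1, was at 3.62, 1.65, 21.4 and 4.66 CPM in the BALB/c tumors and 0.358, 0.229, 0.274, 0.357 and 1.28 CPM in the SCID-beige tumors. BALB/c tumor 3 was the highest, as for Cd8a, and SCID-beige tumor 5 came within reach of the lowest BALB/c tumor (log2 fold change 3.96 ± 0.77 SE, edgeR adjusted p = 0.037). Lag3 and Cd96 gave log2 fold changes of 1.43 and 2.5 with edgeR adjusted p = 0.039 and 0.0055. Tox, a factor of exhausted T cells, reached 2.19 ± 0.49 SE, edgeR adjusted p = 0.061.

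Among the BALB/c tumors the balance of CD8 and regulatory genes varied. The ratio of Cd8a to Foxp3, both per length in FPKM, which divides fragments by gene length and library size, was 2.86, 2.14, 8.06 and 5.0 in tumors 1 to 4. Foxp3 was at 2.06, 1.69, 2.18 and 1.95 FPKM in the same tumors, so that tumor 3, with the highest Cd8a level, had the highest ratio.

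Of 12 tested genes of naive and memory T cells, 3 were called higher and none lower. Lef1, a factor of naive T cells, gave a log2 fold change of 4.13 ± 0.83 SE, edgeR adjusted p = 0.040. Itgae, an integrin chain of tissue-resident cells, gave 1.66 ± 0.31 SE, edgeR adjusted p = 0.030. Ccr9, a gut-homing receptor, and Il7r, the receptor for interleukin 7, were not called (log2 fold changes 2.49 and 1.89, edgeR adjusted p = 0.21 and 0.069). No gene of the list was called without any 1 of BALB/c tumors 1, 3 and 4 or SCID-beige tumors 1 and 5, and 5 were called without BALB/c tumor 2.

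NK cell genes were present in both hosts. Of 15 tested receptors and factors of NK and innate lymphoid cells, 1 was called. This was Ncr1, which encodes NKp46, a receptor specific to NK and related innate cells. It was at 17.9, 19.8, 24.4 and 25.2 CPM in the BALB/c tumors and 7.95, 9.68, 4.66, 4.28 and 10.4 CPM in the SCID-beige tumors. Every tumor of both hosts was well above the detection floor, and the hosts did not overlap (log2 fold change 1.56 ± 0.29 SE, edgeR adjusted p = 0.030). Klrc2, Klra7, Cd226 and Klrc1, receptors that tune NK cell activity, gave 1.94, 1.74, 1.71 and 1.58, and none was called (edgeR adjusted p = 0.081, 0.18, 0.54 and 0.12). Ncr1 was called in 4 of the 9 left-out fits. The median of the list was 1.03, and 4 of its 15 tested genes did not overlap, with BALB/c higher, against 3.34% of all genes tested.

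Of 24 listed B cell genes, 15 passed the low-count filter. Of these 15, 9 did not overlap between hosts, with BALB/c higher, against 3.34% of all genes tested. The 6 genes called higher in BALB/c hosts were Igkc, Iglc1, Pax5, Blk, Spib and Ighd. Their number depended on single tumors: 1 to 2 genes of the list were called without any 1 of BALB/c tumors 1, 3 and 4, and 15 without BALB/c tumor 2. Pax5, the factor of B cell identity, was at 8.48, 0.944, 1.61 and 16.5 CPM in the BALB/c tumors and 0.239, 0, 0.439, 0 and 0.182 CPM in the SCID-beige tumors. Tumors 1 and 4 held most of it, tumor 2 was close to the SCID-beige level, and the log2 fold change was 5.25 ± 1.01 SE, edgeR adjusted p = 0.036. Blk, Spib and Ighd, a kinase, an Ets factor and the IgD heavy chain, gave log2 fold changes of 3.58, 3.48 and 3.25. Cd79a, a signaling chain of the B cell receptor, had a log2 fold change of 4.32 ± 1.22 SE, edgeR adjusted p = 0.15.

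Immunoglobulin transcripts showed the largest differences of all. Igkc, the kappa light chain constant segment (ENSMUSG00000076609, GRCm38 chromosome 6, 70726435 to 70726966), was at 154, 41.2, 433 and 369 CPM in the BALB/c tumors and 0.777, 0, 0.164, 3.80 and 0.182 CPM in the SCID-beige tumors. BALB/c tumor 2 was lowest in its group and still above every SCID-beige tumor (log2 fold change 7.98 ± 1.01 SE, edgeR adjusted p = 0.0032). Igha, the IgA heavy chain, was at 60.1, 35.2, 192 and 97.8 CPM in the BALB/c tumors and 0, 0.229, 0.439, 0 and 0.304 CPM in the SCID-beige tumors. SCID-beige tumors held a few counts at most (log2 fold change 8.88 ± 0.70 SE, edgeR adjusted p = 0.00023). Jchain, which links IgA and IgM into polymers, was at 46.4, 12.2, 70.2 and 90.1 CPM in the BALB/c tumors and 0.597, 0, 0.548, 0.713 and 0.304 CPM in the SCID-beige tumors (log2 fold change 6.96 ± 0.67 SE, edgeR adjusted p = 0.00066).

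Ighg1, the IgG1 heavy chain, had 358, 17, 138 and 747 counts in the BALB/c tumors and 0, 0, 1, 0 and 0 counts in the SCID-beige tumors, and the ratio of its mean levels was 1577 (95% exact counting interval 282 to 62320.1). Iglc1, a lambda light chain constant segment, and Iglv1, a lambda variable segment, were at 0 counts in every SCID-beige tumor and at least 154-fold and 159-fold higher in BALB/c tumors. Igha, Jchain, Ighg1 and Ighg2b were the plasma cell genes called, 4 of 12 tested, and between 4 and 7 were called when a tumor was left out. The 7 were called without BALB/c tumor 2, and DESeq2 called 5. The plasma cell list had a median of 0.77 and holds secretion genes that many cell types use.

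Ighm, the IgM heavy chain, was present in both hosts, at 122, 62.7, 89.7 and 238 CPM in the BALB/c tumors and 62.4, 62, 30.0, 19.5 and 37 CPM in the SCID-beige tumors. All SCID-beige tumors held it, the lowest BALB/c tumor came close to the highest SCID-beige tumors, and the difference was not called (log2 fold change 1.60 ± 0.40 SE, edgeR adjusted p = 0.10). Ighm was at 0 counts in the cultured D2.1 libraries. Of the light chains that complete an antibody, Iglc1 was at 0 in all SCID-beige tumors, and Igkc was highest in SCID-beige tumor 4, with 64 counts.

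The variable (V) segments of the antigen receptors were counted as the number with at least 3 counts in a tumor. The reference is of the C57BL/6 strain, so reads of BALB/c alleles may be assigned to a related segment or lost, and similar segments can share reads. At the heavy chain locus the hosts may carry different alleles, so this loss may be unequal between them for Ighv segments and heavy chain constant genes. Of 100 Igkv segments of the kappa chain, 59, 21, 61 and 69 were detected in BALB/c tumors 1 to 4, against 0 to 1 in SCID-beige tumors. Of 22 Trbv segments of the T cell receptor beta chain, 7 to 13 were detected in BALB/c and 0 to 1 in SCID-beige tumors. Of 108 Trav segments, 2 to 13 were detected in BALB/c tumors and 0 to 1 in SCID-beige tumors. Of 113 Ighv segments, BALB/c tumors held 7 to 19 and SCID-beige tumors 1 to 3. For gamma and delta chains the numbers were small, with 2 of 6 Trgv segments in every BALB/c tumor and 0 to 1 in SCID-beige tumors, and 1 to 4 against 0 to 2 of 5 Trdv segments. In every family except Trdv the BALB/c tumors lay above the SCID-beige tumors without overlap.

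**Figure D2:**
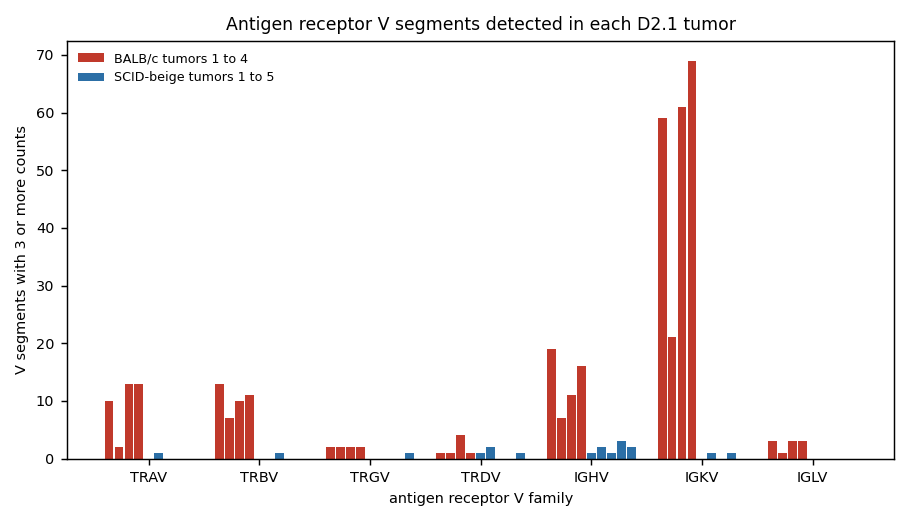
Number of antigen receptor V segments with 3 or more counts in each D2.1 tumor, by family (4 bars for BALB/c tumors 1 to 4, then 5 bars for SCID-beige tumors 1 to 5). The kappa family reaches 69 segments in BALB/c tumor 4 and no family exceeds 3 segments in a SCID-beige tumor.

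Of 19 tested chemokines, lymphotoxins and receptors that recruit and place lymphocytes, 4 were called higher in BALB/c hosts: Cxcl13, Cxcl9, Cxcr5 and Ltb. The number was 2 without any 1 of BALB/c tumors 1, 3 and 4 or SCID-beige tumors 1, 4 and 5, and 7 without BALB/c tumor 2. Cxcl13, the ligand that draws B cells and follicular T cells through Cxcr5, was at 74.4, 26.7, 70.0 and 92.6 CPM in the BALB/c tumors and 3.46, 5.84, 2.96, 4.46 and 3.83 CPM in the SCID-beige tumors. The BALB/c mean was 65.9 ± 27.9 CPM (SD, n = 4) against 4.11 ± 1.11 CPM (SD, n = 5), and the log2 fold change was 4.0 ± 0.34 SE, edgeR adjusted p = 0.00023. Cxcl9, an interferon-gamma-induced ligand of Cxcr3 on activated T and NK cells, was at 54.4, 30.1, 55.8 and 87.3 CPM in the BALB/c tumors and 8.30, 8.65, 6.91, 12.9 and 9.72 CPM in the SCID-beige tumors (log2 fold change 2.61 ± 0.29 SE, edgeR adjusted p = 0.0013). Both were called in 9 of the 9 left-out fits. Cxcr5 itself, present on B cells and follicular T cells, gave 3.33 ± 0.67 SE, edgeR adjusted p = 0.040. Ltb, a lymphotoxin chain that organizes lymphoid tissue, gave 1.99 ± 0.35 SE, edgeR adjusted p = 0.025.

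Of 16 listed genes of lymph node stroma and high endothelial venules, only 7 passed the low-count filter, so the list describes such tissue poorly. Cxcl13 was the 1 gene called. The summed levels overlapped, at 204 to 492 CPM in the BALB/c and 159 to 273 CPM in the SCID-beige tumors. Ccl19 and Ccl21a, defining chemokines of the T cell zone, had 0 counts in all 9 tumors. Whether reads of these genes can be placed in the reference was not tested, so the 0 counts do not show that they were absent. Glycam1, a venule mucin that is also made by the secretory mammary gland, was at 4.38, 0.236, 0.172 and 59.2 CPM in the BALB/c tumors and 0.119, 0.344, 0, 3.63 and 0.122 CPM in the SCID-beige tumors. The part of lymph node tissue in the lymphocyte signal of BALB/c tumors 1 and 4 was not tested beyond these values.

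Some interferon-induced genes were higher in BALB/c hosts. Of 39 tested genes of the interferon-gamma and interferon response, 6 were called higher and none lower, 37 had a positive log2 fold change, and the median was 0.65. The 6 were Gbp6, Tgtp2, Iigp1, Gbp4, Irgm2 and Gbp5, all GTPases that interferon-gamma induces against intracellular microbes. Tgtp2 was at 33.1, 31.6, 71.5 and 55.4 CPM in the BALB/c tumors and 11.7, 14.1, 7.24, 19.2 and 12.2 CPM in the SCID-beige tumors, with no overlap (log2 fold change 1.89 ± 0.31 SE, edgeR adjusted p = 0.018). Gbp6 gave 2.23 ± 0.38 SE, edgeR adjusted p = 0.021, Iigp1 1.77 ± 0.30 SE, edgeR adjusted p = 0.021, and Gbp5 1.26 ± 0.20 SE, edgeR adjusted p = 0.018. Igtp and Gbp2 had log2 fold changes of 1.70 and 0.93 and were not called (edgeR adjusted p = 0.051 and 0.052). Isg15, induced mainly by type I interferon, gave 0.14 ± 0.40 SE, edgeR adjusted p = 0.96. Tgtp1 and Tgtp2, and several Gbp genes, are close copies that can share reads, and their single values are uncertain. The number called was 0 to 2 without any 1 of BALB/c tumors 1, 3 and 4 or SCID-beige tumor 1, 3 without SCID-beige tumor 5, 10 without BALB/c tumor 2 and 12 without SCID-beige tumor 4. That tumor had the highest summed level of its group, 2914 CPM, inside the BALB/c range of 2372 to 3380 CPM.

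MHC class I genes display peptides to CD8+ T cells. Of 25 tested genes 5 were called higher, Nlrc5, Tap1, H2-Q7, H2-Q4 and H2-T22, with a list median of 1.04, and 15 of the 25 did not overlap, against 3.34% of all genes. Nlrc5, the transactivator of class I genes, was at 118, 147, 178 and 77.9 CPM in the BALB/c tumors and 34.3, 50.9, 36.8, 46.6 and 48.3 CPM in the SCID-beige tumors. The hosts did not overlap (log2 fold change 1.59 ± 0.23 SE, edgeR adjusted p = 0.0086). Tap1, which carries peptides into the endoplasmic reticulum, gave 1.38 ± 0.28 SE, edgeR adjusted p = 0.043. H2-K1, a classical class I heavy chain, gave 1.26 ± 0.27 SE, edgeR adjusted p = 0.053, B2m, the shared light chain, 0.96 ± 0.23 SE, edgeR adjusted p = 0.076, and Psmb9, an immunoproteasome subunit, 1.45 ± 0.31 SE, edgeR adjusted p = 0.052. H2-Q and H2-T genes are near copies of one another, and both strains carry another H2 haplotype than the reference, so that reads may be split among these genes. In the class I list 1 gene was called without any 1 of BALB/c tumors 1, 3 and 4 or SCID-beige tumors 1 and 5, 3 without SCID-beige tumor 3, and 15 without BALB/c tumor 2.

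Class II genes, which display peptides to CD4+ T cells, were called at 1 of 13 tested, with a median of 1.26. The called gene was Ciita, the transactivator of class II, at 44.7 to 66.7 CPM in BALB/c and 7.96 to 28 CPM in SCID-beige mice (log2 fold change 1.62 ± 0.32 SE, edgeR adjusted p = 0.037). H2-Aa gave a log2 fold change of 1.57, H2-Ab1 1.5, H2-Eb1 1.63 and Cd74, the invariant chain, 1.40. None of these passed the test (edgeR adjusted p = 0.10, 0.056, 0.088 and 0.056), and no class II gene was called without any 1 of BALB/c tumors 1, 3 and 4 or SCID-beige tumors 1, 3 and 5, while 5 were called without SCID-beige tumor 2.

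**Figure D3:**
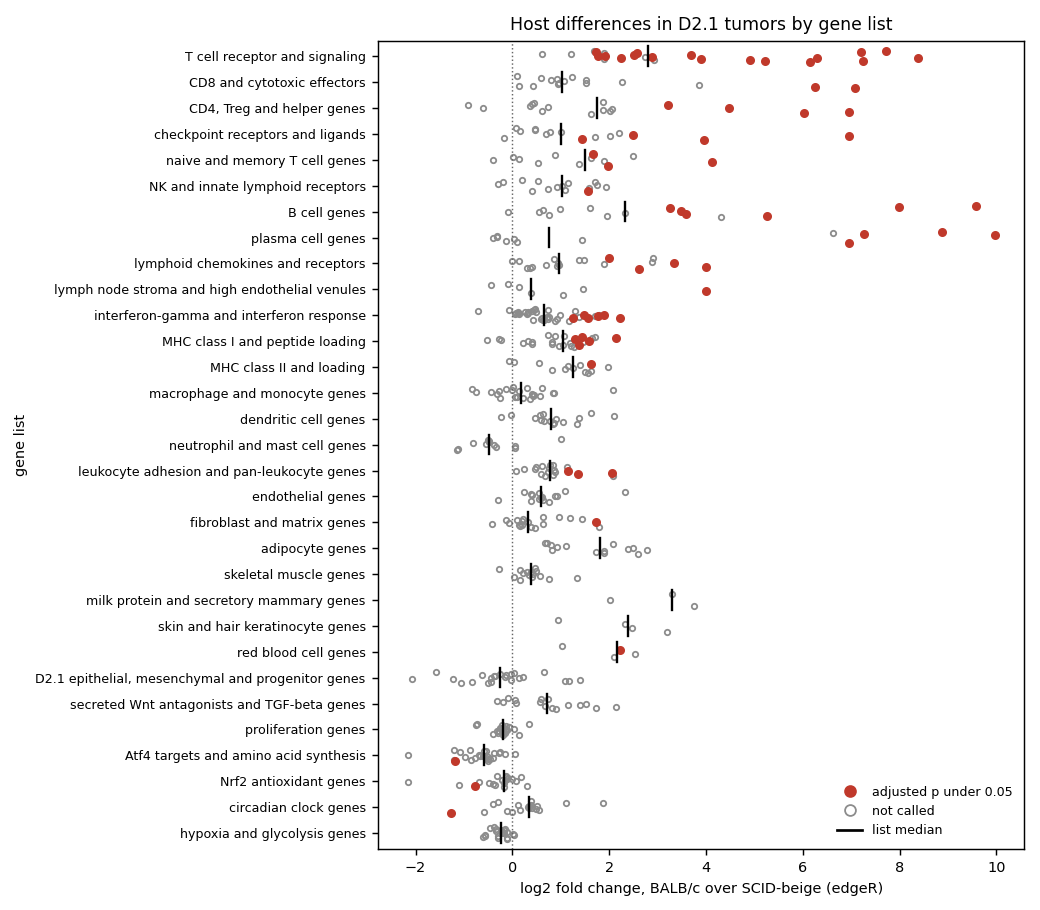
Fold change between hosts, BALB/c over SCID-beige on a log2 scale, of each tested gene in each list (filled points passed the edgeR test, open points did not; black bars are list medians). The T cell and B cell lists have medians of 2.81 and 2.34, while the macrophage, fibroblast, proliferation and hypoxia lists lie around 0.

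Myeloid lists gave no edgeR call. None of 24 tested macrophage and monocyte genes was called by edgeR, 2 were called by DESeq2, and the list median was 0.18. Csf1r, the receptor that sustains macrophages, was at 393, 378, 295 and 334 CPM in the BALB/c tumors and 331, 369, 433, 153 and 227 CPM in the SCID-beige tumors. The hosts overlapped (log2 fold change 0.21 ± 0.26 SE, edgeR adjusted p = 0.88). Arg1 and Nos2, markers of opposed macrophage states, gave log2 fold changes of 0.85 and 0.86, with edgeR adjusted p = 0.87 and 0.85. Of 16 dendritic cell genes none was called by edgeR and 4 by DESeq2, with a median of 0.81. Ccr7, a receptor of migrating dendritic cells and naive T cells, gave 1.38 ± 0.34 SE, edgeR adjusted p = 0.088, and Siglech, of plasmacytoid dendritic cells, 2.11 ± 0.56 SE, edgeR adjusted p = 0.12. Of 12 tested neutrophil and mast cell genes none was called by either tool, 9 had a negative log2 fold change, and S100a8 gave -1.14 ± 0.47 SE, edgeR adjusted p = 0.41. Integrin and pan-leukocyte genes had 3 calls of 19, Itgb7, Itgal and Spn, with log2 fold changes of 2.05, 1.35 and 1.15. None of these integrin and pan-leukocyte genes was called by edgeR without any 1 of BALB/c tumors 1, 3 and 4 or SCID-beige tumors 1, 4 and 5, 1 was without SCID-beige tumor 3, and 7 were without BALB/c tumor 2.

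Stromal lists gave 1 call by edgeR. Of 15 tested endothelial genes edgeR called none and DESeq2 2, where DESeq2 called 3.09% of all genes tested. The log2 fold change was positive in 14 of the 15, with a median of 0.59. In 3 of them every BALB/c tumor lay above every SCID-beige tumor, against 3.34% of all genes tested. Each tool called 1 of 19 fibroblast genes, for edgeR Thy1, a gene of fibroblasts that mouse T cells also carry (log2 fold change 1.73 ± 0.33 SE, edgeR adjusted p = 0.036). Col1a2, a fibrillar collagen chain, gave 1.78 ± 0.64 SE, edgeR adjusted p = 0.31. Vwf, of endothelial cells, gave 0.91 ± 0.28 SE, edgeR adjusted p = 0.21, and Lyve1, of lymphatic vessels and some macrophages, 2.32 ± 0.71 SE, edgeR adjusted p = 0.20.

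Markers of tissue next to the tumor differed between single tumors. The 14 tested adipocyte genes all had positive log2 fold changes, with a median of 1.81, edgeR called none and DESeq2 1, and their summed level was 415 to 2297 CPM in the BALB/c and 286 to 599.7 CPM in the SCID-beige tumors, highest in BALB/c tumor 1. Adipoq, the adipocyte hormone adiponectin, was at 54.5, 3.25, 24.2 and 26 CPM in the BALB/c tumors and 4.96, 2.75, 0.219, 9.03 and 5.35 CPM in the SCID-beige tumors. Milk protein and secretory mammary genes summed to 612 CPM in BALB/c tumor 1 and 76.7 CPM in tumor 4, against 1.43 to 12 CPM in the other 7 tumors. Most of the tumor 4 sum was Glycam1, which is also in the list of lymph node stroma and high endothelial venules. In tumor 1 Glycam1 was a small part of the sum. Skin keratinocyte genes summed to 75.2 and 190.2 CPM in BALB/c tumors 1 and 4 and to 3.04 to 7.5 CPM in the others. Skeletal muscle genes were high in tumors of both hosts, at 72.4 to 486 CPM in the BALB/c and 4.78 to 406 CPM in the SCID-beige tumors. Without BALB/c tumors 1 and 4 the number of genes called between hosts was 11, of which all were among the 133, and 3 of the 24 T cell genes were called. In that edgeR fit no member was called of the lists for CD4+ and regulatory cells (Foxp3 and Ctla4 included), checkpoints, naive T cells, NK cells, B cells, the interferon response, class II or leukocyte adhesion, in which 8, 7, 6, 6, 9, 19, 8 and 10 genes had an unadjusted p under 0.05. It called 2 CD8, 3 plasma cell, 2 chemokine and 1 class I gene. Red blood cell genes summed to 34.5 to 97 CPM in the BALB/c and 4.92 to 18 CPM in the SCID-beige tumors, and Hbb-bs, a beta globin with near copies, was called (log2 fold change 2.22 ± 0.39 SE, edgeR adjusted p = 0.024).

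**Figure D4:**
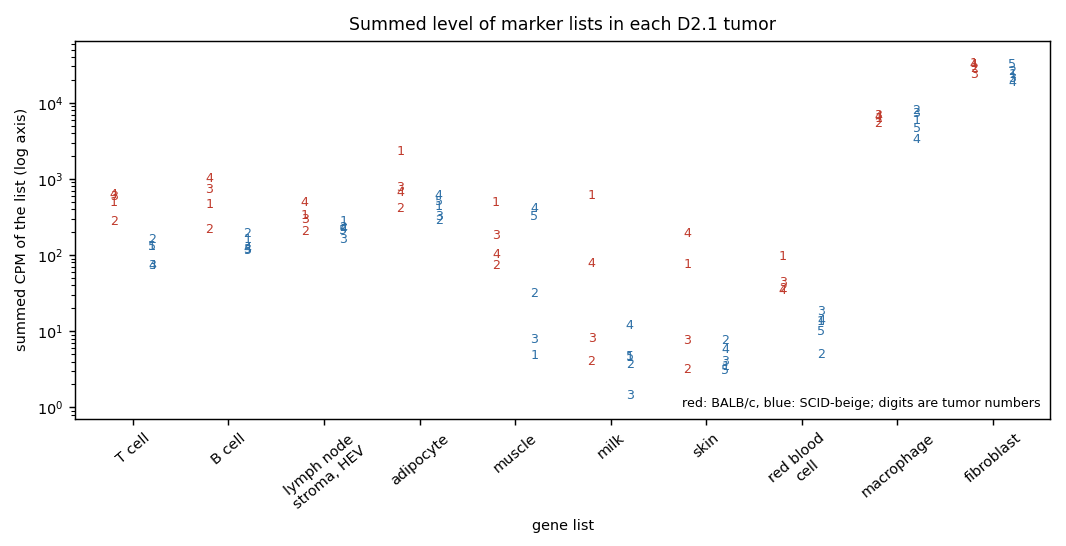
Summed CPM of 10 marker lists in each D2.1 tumor on a log axis, with digits giving the tumor number (red, BALB/c; blue, SCID-beige). The T cell and B cell sums are higher in all BALB/c tumors, while skin markers are high in BALB/c tumors 1 and 4 only. The milk sum is highest in the same tumors, in tumor 4 mostly through Glycam1, a gene shared with the lymph node list.

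Genes that the study used to describe the state of D2.1 cells gave no edgeR call. Stroma and leukocytes also express some of them, such as Cd74. Of 23 genes of epithelial, mesenchymal or progenitor state, taken from those the study named for D2.1, none was called by edgeR, 1 was called by DESeq2 and 2 by limma-voom, and the median was -0.25. As the study chose this list with these samples among others, it is not independent evidence. Krt8 and Krt18, keratins of luminal cells, gave log2 fold changes of -0.5 and -0.84, Krt14, a basal keratin, -1.05, and Cdh1, E-cadherin, 1.09. Their edgeR adjusted p = 0.70, 0.81, 0.66 and 0.28. Sox9, a progenitor factor, gave -0.02 ± 0.15 SE, edgeR adjusted p = 0.99. Cd200, a ligand that restrains myeloid cells, was at 81.4 to 98 CPM in BALB/c and 105 to 142 CPM in SCID-beige mice, without overlap but not called (log2 fold change -0.44 ± 0.15 SE, edgeR adjusted p = 0.28).

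Dkk3, a secreted member of the Dickkopf family, was at 294, 238, 248 and 264 CPM in the BALB/c tumors and 155, 209.8, 75.5, 58.5 and 237 CPM in the SCID-beige tumors. Both hosts held abundant transcript, SCID-beige tumors 3 and 4 were lowest, and the hosts did not overlap, although the lowest BALB/c and the highest SCID-beige tumor were within about 1 CPM. The difference was not called (log2 fold change 0.83 ± 0.35 SE, edgeR adjusted p = 0.42). Its BALB/c level per length was 77.2 ± 7.60 FPKM (SD, n = 4), against 44 ± 23.8 FPKM (SD, n = 5) in SCID-beige hosts. Tgfb1, the cytokine TGF-beta 1, gave 0.08 ± 0.16 SE, edgeR adjusted p = 0.95. None of the 16 tested Wnt antagonists and TGF-beta genes was called by edgeR, and 1 was called by DESeq2.

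Proliferation genes were not called. Of 21 tested genes 18 had a negative log2 fold change, with a median of -0.20, and no tool called one. Myc gave -0.73 ± 0.30 SE, edgeR adjusted p = 0.42, Cdkn1b, the cell cycle inhibitor p27, 0.34 ± 0.21 SE, edgeR adjusted p = 0.69, and Cdkn1a, the inhibitor p21, -0.75 ± 0.26 SE, edgeR adjusted p = 0.29. SCID-beige tumor 4 had the highest summed level, 2380 CPM, against 1507 to 1803 CPM in the other 8 tumors. It also stood highest for hypoxia and glycolysis genes, at 19914 CPM against 10501 to 12344 CPM in the others. Of the 20 tested hypoxia genes, 18 had a negative log2 fold change and none was called.

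The 3 genes lower in BALB/c hosts came from different pathways. Nr1d1, a repressor of the circadian clock (ENSMUSG00000020889, GRCm38 chromosome 11, 98767932 to 98775333), was at 22.7, 17.7, 31.2 and 18.1 CPM in the BALB/c tumors and 40.6, 86.4, 46.3, 43.4 and 53.5 CPM in the SCID-beige tumors. Every BALB/c tumor lay below every SCID-beige tumor (log2 fold change -1.27 ± 0.26 SE, edgeR adjusted p = 0.046). Asns, asparagine synthetase and a target of the stress factor Atf4, was at 37, 39.2, 32.1 and 47.3 CPM in the BALB/c tumors and 128, 55.7, 79.8, 115 and 66.4 CPM in the SCID-beige tumors (log2 fold change -1.19 ± 0.25 SE, edgeR adjusted p = 0.048). Srxn1, sulfiredoxin, an antioxidant enzyme controlled by Nrf2, was at 52.7, 51.6, 68.6 and 55.6 CPM in the BALB/c tumors and 113, 85.8, 104, 103 and 80.2 CPM in the SCID-beige tumors (log2 fold change -0.77 ± 0.16 SE, edgeR adjusted p = 0.048). With 1 tumor removed at a time, Nr1d1 and Srxn1 were called in 0 fits and Asns in 1, so each of these calls needed nearly all of the tumors.

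Of 24 tested Atf4 targets and genes of amino acid synthesis, 23 had a negative log2 fold change, against 51.2% of all genes tested. The median was -0.59, and in 7 of the 24 every BALB/c tumor lay below every SCID-beige tumor, against 1% of all genes tested. Slc7a11, the cystine transporter, was at 6.59, 6.85, 2.36 and 3.64 CPM in the BALB/c tumors and 25, 8.42, 40.8, 12.1 and 22.5 CPM in the SCID-beige tumors, and was not called (log2 fold change -2.16 ± 0.47 SE, edgeR adjusted p = 0.056). Trib3, a stress-induced pseudokinase, gave -1.21 ± 0.26 SE, edgeR adjusted p = 0.053, and Phgdh, the first enzyme of serine synthesis, -0.97 ± 0.23 SE, edgeR adjusted p = 0.073. Asns was the 1 gene of the list called by edgeR, DESeq2 called 7 and limma-voom 2, which called 1.55% of all genes tested. A fit with the replicate number as a block, which called 0.0938% of all genes, called none of the list. The summed level of the list was 1574 to 2087 CPM in the BALB/c and 2068 to 3353 CPM in the SCID-beige tumors, with the lowest SCID-beige tumor inside the BALB/c range. Of 20 Nrf2 genes, 16 had a negative log2 fold change with a median of -0.18, and Nqo1 gave -1.10 ± 0.34 SE, edgeR adjusted p = 0.21. Of 19 clock genes 13 were positive. Nr1d2, the relative of Nr1d1, gave -0.59 ± 0.32 SE, edgeR adjusted p = 0.60. The hour of collection is not given in the sources used here.

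A further 70 called genes lay in no list. Those named next were chosen after their values were seen, apart from Crmp1. Gimap3, Gimap4 and Gimap6, GTPases of lymphocyte survival, gave log2 fold changes of 2.34, 1.60 and 1.66, and Prkcq, the protein kinase C of the T cell synapse, 2.25. Il12b, the p40 chain of interleukins 12 and 23, gave 1.67, and Izumo1r, a folate receptor family member carried by regulatory T cells, 4.70. C3, the central complement component, was at 591, 77.6, 167 and 262 CPM in the BALB/c tumors and 49.8, 72.3, 64.1, 72.5 and 70.7 CPM in the SCID-beige tumors. BALB/c tumor 1 was highest and tumor 2 lay just above the SCID-beige range (log2 fold change 2.06 ± 0.43 SE, edgeR adjusted p = 0.047). Ehf, an Ets factor of epithelia, was at 12.4, 1.77, 2.76 and 4.66 CPM in the BALB/c tumors and 0.538, 0.687, 0.164, 0.238 and 0.182 CPM in the SCID-beige tumors (log2 fold change 3.88 ± 0.66 SE, edgeR adjusted p = 0.022). Tumors 1 and 4, with the highest sums of the milk and skin lists, held the most Ehf, and the part of adjacent epithelium was not tested. Crmp1, a cytoskeletal phosphoprotein best known from neurons, had 34, 27, 37 and 36 counts in the BALB/c tumors and 0, 0, 1, 0 and 1 counts in the SCID-beige tumors, a ratio of mean levels of 83.8 (95% exact counting interval 22.8 to 699).

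Of the 128 called genes that have a row in the table of cultured cells, 74 (57.8%) had 3 counts or fewer in each of the 3 cultured D2.1 libraries, against 9.21% of the 14233 tested genes with a row. Cells and tumors are in separate tables, so these shares describe presence and not a change in level.

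D2A1, the other line, also came from D2 nodules and outgrows at distant sites, and its tumors were set beside those of D2.1 to show where the host difference was unlike. In D2A1 tumors 170 of 14572 genes were called between hosts (1.17%), 132 of them higher in BALB/c hosts (0.906%). Of the 133 genes called in D2.1 tumors, 93 were tested in D2A1 tumors, 84 had a positive log2 fold change there, and 33 were called there, all in the same direction. The 2 comparisons used different mice. Of the T cell list 16 genes were tested in D2A1 tumors and 5 called higher, and of the class II list 8 of 11 were called, with a median log2 fold change of 2.59. Foxp3 was at 0.338, 0.239, 0.145 and 0.547 FPKM in the D2A1 tumors of BALB/c hosts, below all 4 D2.1 tumors. The ratio of Cd8a to Foxp3 was 10.1, 2.47, 2.76 and 4.18 in those D2A1 tumors and overlapped with that of D2.1 tumors. These D2A1 ratios are imprecise, as they rest on 20, 14, 9 and 35 Foxp3 counts and 147, 25, 18 and 106 Cd8a counts. Their overlap does not show a like balance in both lines.

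A difference in the host effect between the lines was tested as an interaction over all 18 tumors, and 3 of 16036 genes passed (0.0187%). On the log2 scale Trac differed by 4.61 ± 0.71 SE, edgeR adjusted p = 0.017, with a host difference of 0.27 ± 0.29 SE, edgeR adjusted p = 0.90 in D2A1 tumors. In those tumors Trac was at 2.58 to 5.29 CPM in BALB/c and 2.63 to 3.94 CPM in SCID-beige hosts. Cd3e was called in D2A1 tumors (log2 fold change 4.37 ± 0.88 SE, edgeR adjusted p = 0.038), and its interaction was not called (2.85 ± 1.36 SE, edgeR adjusted p = 0.59). Crmp1 differed by 6.67 ± 1.03 SE, edgeR adjusted p = 0.017, and was -0.70 ± 0.61 SE, edgeR adjusted p = 0.85 between hosts in D2A1 tumors. D630003M21Rik, a protein-coding gene of unstated role, differed by 2.39 ± 0.35 SE, edgeR adjusted p = 0.017. It was not called in D2.1 tumors, where it was at 227, 284, 265 and 256 CPM in the BALB/c tumors and 228, 268, 197, 95.7 and 220.2 CPM in the SCID-beige tumors. In D2A1 tumors it was lower in BALB/c hosts (log2 fold change -2.07 ± 0.24 SE, edgeR adjusted p = 0.0087). For the other genes called in D2.1 tumors a difference between the lines did not pass the test, which does not show that the lines were alike.

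**Figure D5:**
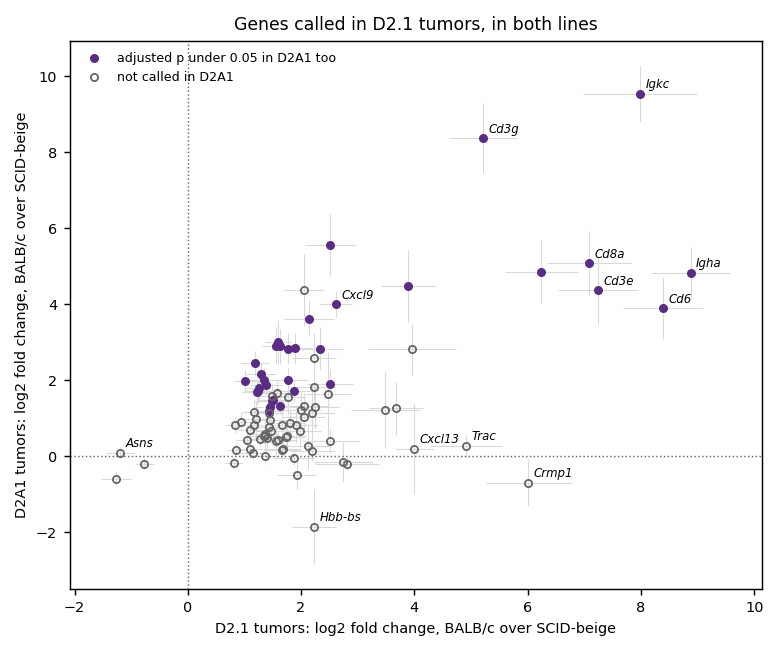
Fold change between hosts on a log2 scale in D2.1 tumors (horizontal) and D2A1 tumors (vertical) for the 93 genes called in D2.1 tumors and tested in both lines, with standard errors as lines. The 33 filled points also passed the test in D2A1 tumors, while Trac, Crmp1 and Hbb-bs lie near or below 0 there.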

How the data were processed

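Bulk RNA-seq of 18 tumors and 6 cultured samples was deposited as 2 kinds of table. The deposited counts are whole-number read counts per Ensembl gene, which the authors had made by a sequencing provider's pipeline. The submitters' processing notes name STAR and mm10. The counting tool, its annotation and strand setting are not given in the sources used here, so reads of overlapping genes cannot be separated. The deposited FPKM values were checked against the counts: over 17418 genes the ratio of FPKM times library total to counts was constant within 1% for 100% of genes. FPKM served only for levels between genes. Identifiers were matched to GENCODE M21, 37 had no match, and 3 list symbols had no row.

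Tumors were grouped by line and host from the labels. Counts of the 9 D2.1 tumors entered edgeR 4.0.16 (filterByExpr, TMM, robust quasi-likelihood fit, adjusted p under 0.05 over all genes tested), and the interaction used all 18 tumors. The script was tested on simulated data. The members and gene lists were chosen with earlier results of these data known. Genes named in the text are the 10 largest rises and up to 10 falls among called protein-coding genes with a mean of at least 5 CPM and no overlap, the 10 smallest adjusted p-values, up to 4 members per list by size of change plus its defining members, genes the study named, interaction genes, and the mutated host genes. A few genes that meet the rule are not reported here. Alternatives were DESeq2 1.42.0, limma 3.58.1 (voom with quality weights), other size factors and filters, a replicate block, all tumors in 1 fit, thinned counts, and leaving out tumors. Intervals on shares are 95% Wilson intervals, and they, the exact ratio intervals and the floor of 3 counts cover counting error only. Promoter sequences are from RefSeq on GRCm38.p6.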

Additional observations from a re-analysis of the deposited data

Results flagged for a closer look

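In 267 groups of 4 or 5 D2.1 tumors of 1 host, 1 gene each, 12 held a tumor farther from the others than Dixon's critical value allows. Chance alone gives about 1 in 20. Among T cell genes, Pdcd1 was at 1.28 CPM in SCID-beige tumor 5, with the next tumor at 0.358 CPM. Tox was at 4.60 CPM in BALB/c tumor 3, above 2.71 CPM in the next. Thy1 was at 68.6 CPM in BALB/c tumor 2, below 127 CPM in the next. Ighg2b was at 0.416 CPM in SCID-beige tumor 4, above 0.0548 CPM, and Gbp10 was at 0.115 CPM in SCID-beige tumor 2, below 0.493 CPM.

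Several of the flagged values were of SCID-beige tumor 3. As the share of groups flagged was near that given by chance, they are listed as values and not as a trait of this tumor. Krt14, a basal keratin, reached 319 CPM there, above 83.6 CPM in the next tumor, and Id4, an inhibitor of helix-loop-helix factors, reached 36.2 CPM, above 4.64 CPM. Sfrp1, a Wnt antagonist, was at 0 CPM with the next tumor at 1.95 CPM, and Vwf was at 5.54 CPM with the next at 10.5 CPM. SCID-beige tumor 4 had the highest Ccnb1, a mitotic cyclin, at 108 CPM against 64.0 CPM in the next. Sox9 was at 153 CPM in BALB/c tumor 1 and at 133 CPM in the next.

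The host difference of 3 genes was unlike in the lines by the interaction test. On the log2 scale the difference in D2.1 minus that in D2A1 tumors was 6.67 for Crmp1, 2.39 for D630003M21Rik and 4.61 for Trac.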

How the results depend on the processing

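The count of 133 genes called between hosts in D2.1 tumors kept its direction under every alternative and varied in size. It was 461 with DESeq2 (404 higher, 57 lower), 231 with limma-voom and quality weights (229 higher), 250 with no filter beyond 1 count (242 higher), and 261 in 1 fit of all 18 tumors (225 higher, 36 lower). DESeq2 called all 133 and voom 120 of them. It was 134 with DESeq2's size factors in edgeR, 134 with thinned counts, 133 with a minimum of 10 counts in 4 tumors, 133 without a robust fit and 128 when a log2 fold change beyond 1 was also required. Leaving out 1 tumor gave 26 to 314 genes: 26, 314, 31 and 36 without BALB/c tumors 1 to 4, and 39, 148, 73, 97 and 58 without SCID-beige tumors 1 to 5. Without both BALB/c tumors 1 and 4, which had the highest sums of the milk and skin lists, 11 were called. The cause of these changes was not tested, and a left-out fit also has fewer tumors.

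With the replicate number as a block, 14 genes were called (0.0938%), all among the 133. No source used here says that the numbers pair the tumors. Deviations from the host means correlated at -0.108, -0.198, -0.184 and 0.169 between same-numbered tumors, and no BALB/c tumor correlated best with its own number. With so few tumors these correlations cannot exclude a shared day. For the interaction the block gave 3.

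The interaction count of 3 was 105 with DESeq2 (79 and 26 by sign), 6 with DESeq2's size factors, 7 with no filter beyond 1 count, and 3 with a minimum of 10 counts. Leaving out 1 tumor gave 0 to 12. It was 0 without D2.1 BALB/c tumor 3 or 4 or D2A1 BALB/c tumor 1 or 4, by edgeR, where 1215, 1232, 1168 and 1109 genes had an unadjusted p under 0.05. It was 1 without D2.1 SCID-beige tumor 2 or D2A1 BALB/c tumor 3, 8 without D2.1 BALB/c tumor 2, and 12 without D2.1 SCID-beige tumor 4.

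Of the 137 genes chosen by rule, 42 were called, and none reversed under any alternative while called. The block kept 14 of the 42 and the fit without BALB/c tumors 1 and 4 kept 11, while DESeq2 added 30.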

Other observations

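In BALB/c tumor 3 a single segment led the Igkv family and another the Trbv family. They were chosen after their values were seen. Igkv8-24 had 688 of 1613 Igkv counts, 42.7% (95% Wilson interval 40.3 to 45.1), while the leading Igkv segments of BALB/c tumors 1, 2 and 4 took 8.32%, 10.9% and 5.96%. Trbv31 had 77 of 138 Trbv counts in BALB/c tumor 3, 55.8% (47.5 to 63.8), against 16.9% and 18.8% for the leading segment of tumors 1 and 4. In the Trav family the leading segments took 20.9%, 19.8% and 27.7% in tumors 1, 3 and 4, and in the Ighv family 23.2%, 26.5% and 21.7%. BALB/c tumor 2 held 49 Trbv, 15 Trav and 48 Ighv counts, and no share was computed. Tumor 3 was also the BALB/c tumor with the highest Cd8a and Pdcd1.

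The mix of heavy chain isotypes differed among tumors as well. Ighm took 50.7%, 60.5%, 20.8% and 49.3% of the counts on heavy chain constant genes in BALB/c tumors 1 to 4, and 88.6% to 98.0% in SCID-beige tumors. Igha took 24.9%, 34.0%, 44.5% and 20.2% in the BALB/c tumors. Ighg2c took 26.1% in BALB/c tumor 3. Ighe, the heavy chain of IgE, took 3.65% and 5.63% in BALB/c tumors 1 and 4 and had no count in tumors 2 and 3. BALB/c mice carry Ighg2a in place of the Ighg2c of the reference strain, so reads of the former may be counted as the latter. The SCID-beige hosts may carry another heavy chain allele, so isotype shares of the hosts may also differ through mapping.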
